A study of Mus musculus with 6 samples.

Results

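Peroxiredoxins, sulfiredoxin and the thioredoxin system were followed as 10 transcripts, Prdx1 to Prdx6, Srxn1, Txn1, Txnrd1 and Txnip, taken by gene symbol from a table of 35178 symbols. All 10 were found, each on a single line, and all 10 passed the filter on low counts. RNA came from Ter119+ cells of the spleen, Ter119 being a surface marker of erythroid cells, in mice with sickle cell disease that were either wild type for Nrf2 (WT, 3 libraries) or Nrf2 knockout (KO, 3 libraries). The mice were 2 to 3 months old, on a mixed B6;129P2 background, and both groups carry sickle cell disease. The labels name neither the sickle nor the knockout allele. They also do not say that each library had its own mouse, so the spread behind every p-value is that of libraries and may be technical in part. The KO libraries differ in sex-linked transcripts, as given below, so they do not all come from the same mouse.

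Peroxiredoxins are enzymes that break down hydrogen peroxide and lipid peroxides with a reactive cysteine, which thioredoxin then returns to its working form. Thioredoxin is in turn recharged by thioredoxin reductase with electrons from NADPH. Strong peroxide overoxidises the cysteine, and sulfiredoxin is the enzyme that repairs it. Prdx2 is among the most abundant proteins of the red cell, and mice without Prdx1 or Prdx2 are known to develop hemolytic anemia. Srxn1, Prdx1, Txn1 and Txnrd1 are known targets of Nrf2, the transcription factor that acts through antioxidant response elements in promoters.

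Promoter sequence is shown for Srxn1 and Prdx1, whose windows held a close match to that element, and for Prdx2, the most abundant of the 10 transcripts, whose window held none. The letters searched were TGANTCAGC, on both strands, in the 300 bases from 250 before to 50 after each annotated start (RefSeq, GRCm38.p6, the same assembly as mm10). Each sequence is given 5′ to 3′ on the gene's own strand, with the match in capitals.
Srxn1: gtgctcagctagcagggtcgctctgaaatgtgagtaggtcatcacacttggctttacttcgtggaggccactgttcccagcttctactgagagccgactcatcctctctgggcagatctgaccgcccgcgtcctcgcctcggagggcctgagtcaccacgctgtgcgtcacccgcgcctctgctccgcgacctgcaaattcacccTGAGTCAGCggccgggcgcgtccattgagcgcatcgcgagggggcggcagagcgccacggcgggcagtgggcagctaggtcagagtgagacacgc
Prdx1: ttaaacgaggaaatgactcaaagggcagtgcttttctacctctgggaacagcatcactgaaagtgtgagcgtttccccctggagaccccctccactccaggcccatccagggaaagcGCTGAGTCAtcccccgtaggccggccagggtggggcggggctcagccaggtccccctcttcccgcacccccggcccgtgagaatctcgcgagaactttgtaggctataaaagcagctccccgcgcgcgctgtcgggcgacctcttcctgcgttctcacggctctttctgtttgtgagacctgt
Prdx2: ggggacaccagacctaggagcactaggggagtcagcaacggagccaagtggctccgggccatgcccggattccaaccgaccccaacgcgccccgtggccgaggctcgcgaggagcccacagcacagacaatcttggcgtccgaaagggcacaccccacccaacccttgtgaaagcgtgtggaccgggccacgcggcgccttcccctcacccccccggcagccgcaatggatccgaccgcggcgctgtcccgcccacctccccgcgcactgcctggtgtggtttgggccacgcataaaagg

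The Srxn1 window lies at chr2:152105274-152105573 on the + strand and reads TGAGTCAGC from 45 to 37 bases before the start. The Prdx1 window lies at chr4:116685349-116685648 on the + strand and reads TGACTCAGC on the opposite strand, from 133 to 125 bases before the start. The Prdx2 window lies at chr8:84969372-84969671, also on the + strand. Windows of 9 of the 10 genes were found, with 3 for Txnrd1; Prdx6 had no entry. The single windows of Prdx3, Prdx4, Prdx5, Txn1 and Txnip and the 3 windows of Txnrd1 did not hold these letters. Of all 32851 windows, 1.19% held them. A looser form, TGANNNNGC, which contains the first, was found 4 times in the Srxn1 window, 2 times in that of Prdx1, once in that of Prdx5 and in 2 of the 3 Txnrd1 windows; 41.3% of all windows held it. A match is a string of letters and not a measured binding site. Among the 127 tested genes with TGANTCAGC in a window, 16 (12.6%) were lower in KO at an unadjusted p under 0.05 and 8 (6.30%) higher, with a median log2 change of -0.06. Among all 9873 tested genes with a window these shares were 6.30% and 6.75%, with a median of 0.03. These 9873 include the 127, and the 16 include Srxn1 and Prdx1. The difference between the shares was not tested.

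The libraries held 16420054 to 21790983 counted reads, and the 10 transcripts had 502 to 59006 reads per library. Libraries differed in sex-linked transcripts: Xist, the RNA of the silenced female X chromosome, had a level of 784 to 1169 CPM (reads per 1000000 counted reads, here without TMM scaling) in WT. It was 917 CPM in KO replicate 3 but 15.8 and 0.702 CPM in the other two KO libraries. Genes of the Y chromosome summed to 0 to 0.289 CPM in WT, 4.64 CPM in KO replicate 3 and 212 and 271 CPM in KO replicates 1 and 2, on the same scale. KO replicate 3 was therefore also compared alone with WT; a lone library has no spread of its own, and it was assumed to vary like the WT libraries and the other KO pair. The 10 late erythroid markers, among them the anion exchanger Slc4a1 and the heme synthesis enzyme Alas2, summed to 38107 to 40048 CPM in WT and 26406 to 28580 CPM in KO, and 10 of 10 were lower in KO (median log2 -0.40). The late erythroid sum was above that of any other marker list in every library. Sums of all other lists overlapped between groups, but in several lists most genes moved one way. The 8 B cell markers summed to 42.7 to 217 CPM in WT and 28.4 to 88.3 CPM in KO, and 8 of 8 were lower in KO (median log2 -1.20). The high WT sum was that of WT replicate 1 alone. WT replicates 2 and 3, at 42.7 and 59.7 CPM, lay within the KO range. The 8 platelet markers summed to 175 to 389 and 185 to 227 CPM, and 8 of 8 were lower (median -0.60). Neutrophil markers summed to 311 to 974 and 472 to 635 CPM, with 7 of 8 lower (median -0.28). Macrophage markers summed to 1197 to 1363 and 1357 to 1674 CPM, with 0 of 8 lower (median 0.25). Early progenitor markers (208 to 265 and 232 to 272 CPM) had 1 of 7 tested lower (median 0.18), T and NK cell markers (23.1 to 31.2 and 24.4 to 38.5 CPM) 3 of 8 (median 0.11), and mast cell and basophil markers (3.42 to 7.78 and 2.64 to 6.07 CPM) 2 of 3 tested (median -0.33). No marker was at 0 in all libraries. In bulk samples fewer cells of a type and less RNA per cell cannot be told apart, and the part of these markers in the results below was not tested. Nfe2l2, the gene of Nrf2, had 71.0 to 98.7 CPM in WT and 63.5 to 76.8 in KO (log2 -0.23, not called by edgeR). The deleted part is not named in the labels, so these reads do not check the genotype. Nqo1, a classical Nrf2 target, fell from 50.7 to 81.5 CPM in WT to 11.5 to 18.2 CPM in KO (log2 -2.09, adjusted p = 0.0301 by edgeR).

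In KO cells 8 of the 10 transcripts were lower than in WT (against 47.1% of all genes). The other 2, Prdx3 and Prdx5, were not. None of the 10 passed an adjusted p under 0.05 by edgeR over all 13721 genes, where 3 genes did, a background of 0.0219% called lower and 0% higher. At an unadjusted p under 0.05, 8 of 10 were lower and 0 higher, against 5.98% lower and 6.25% higher of all genes. The groups did not overlap for 6 of 10, all lower in KO, against 7.91% of all genes apart and lower and 10.3% apart and higher. The median log2 change of the 10 was -0.64, beside 0.02 for all genes. DESeq2 called 7 of the 10, all lower, against 1.81% of all genes called lower and 0.569% higher, and limma-voom called 0, so that the call depended on the test. Since the 10 were chosen with earlier results of these data known, the counts describe them and are not independent evidence. KO replicates 1 and 2 had little Xist, unlike WT, so sex and genotype cannot be told apart there for any of the 10.

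**Figure D1:**
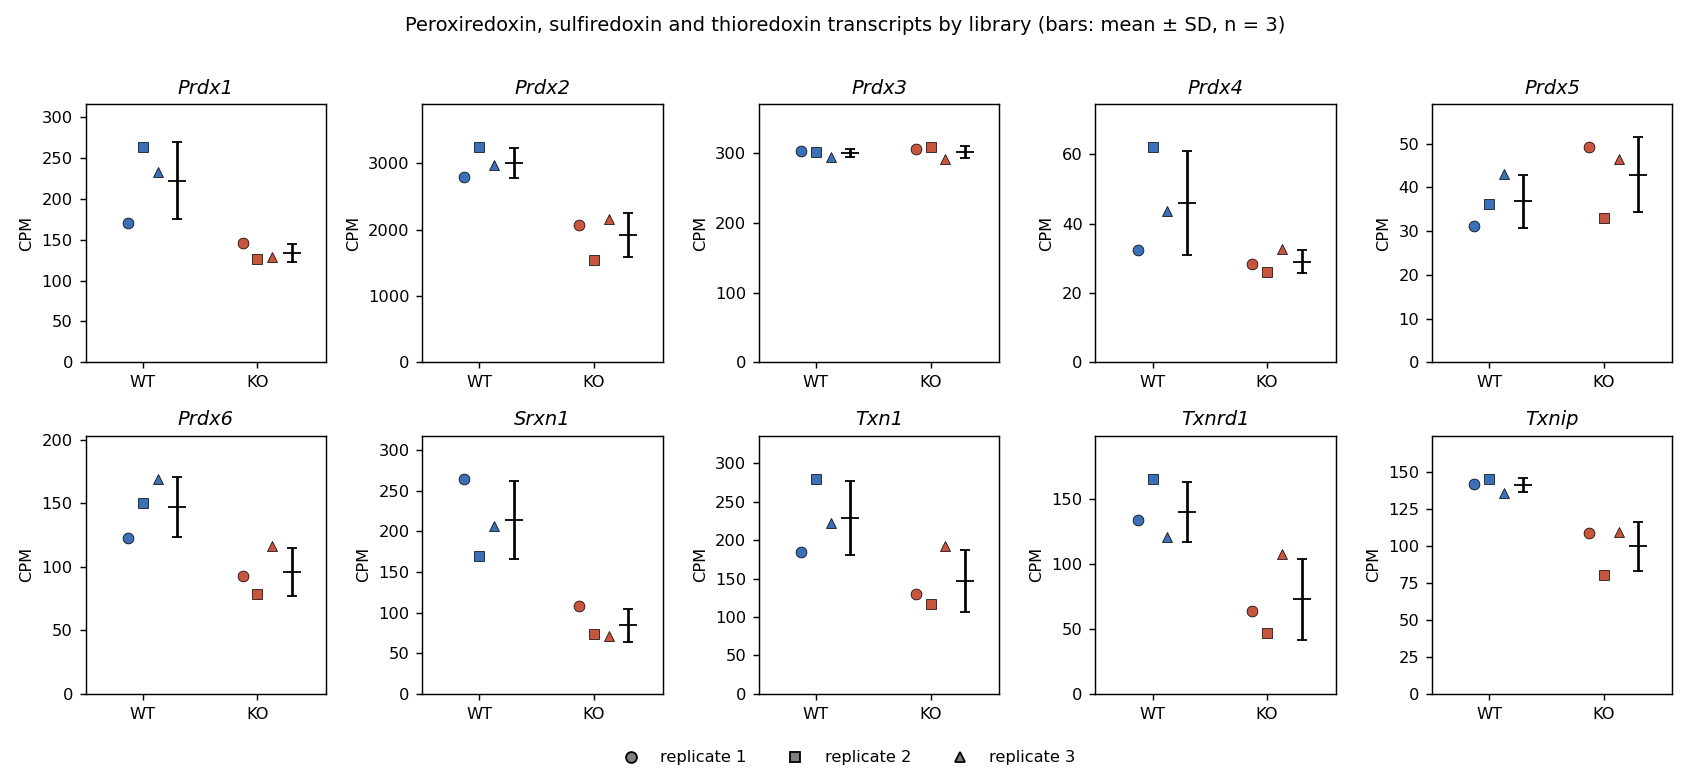
Level of each transcript in CPM (y axis, from 0) in the 3 WT and 3 KO libraries; symbols mark the replicate and bars the mean ± SD. Prdx1, Prdx2, Prdx6, Srxn1, Txnrd1 and Txnip have every KO library under every WT library, while Prdx3 lies between 292 and 308 CPM in all 6.

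Sulfiredoxin had the largest change of the 10. Srxn1 stood at 265, 169 and 207 CPM in WT replicates 1, 2 and 3, against 108, 74.3 and 71.2 CPM in the KO libraries in the same order. Every KO library was under every WT library, with WT replicate 1 the highest. Means were 214 ± 48.0 and 84.4 ± 20.3 CPM (SD, n = 3 each), a log2 change of -1.34 (SE 0.203, adjusted p = 0.0815 by edgeR). Its p ranked 18 of 13721. The call by edgeR was reached without KO replicate 1 (log2 -1.58, adjusted p = 0.00937) and with no filter on low counts (adjusted p = 0.0290), among other settings. Over all alternatives the adjusted p ran from 7.63e-09 by DESeq2 to 0.381 for KO replicate 3 alone, where the log2 change was -1.59. Its locus spans chromosome 2 from 152105516 to 152111376 in mm10.

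The typical 2-Cys peroxiredoxins of the cytosol, Prdx1 and Prdx2, were lower in KO by about the same factor. Prdx2, the peroxide scavenger that dominates in red cells, stood at 2799.9, 3242 and 2974 CPM in WT against 2073, 1539 and 2155 CPM in KO. The groups were apart, and KO replicate 2 was the lowest. The log2 change was -0.64 (SE 0.140, adjusted p = 0.117 by edgeR). Prdx1, which is also known as a chaperone and a partner of signalling proteins, stood at 170, 263 and 232 CPM in WT against 146, 126 and 128 CPM in KO. Its KO values were close together while WT replicate 1 came near them, and the log2 change was -0.73 (SE 0.150, adjusted p = 0.114 by edgeR). KO replicate 3 by itself gave log2 changes of -0.48 for Prdx2 and -0.79 for Prdx1. DESeq2 called both (adjusted p = 0.000767 and 0.000933), and over all alternatives the adjusted p ran up to 0.590 and 0.576. Prdx2 lies on chromosome 8 from 84969587 to 84974834 and shares 177 exonic bases with Rnaseh2a and 173 with Junb, both on the opposite strand. The kit does not mark strand, so reads in those stretches cannot be assigned. Junb itself had 527 to 809 reads per library and Rnaseh2a 1202 to 1982, beside 34261 to 59006 for Prdx2.

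The peroxiredoxins found in mitochondria were not lower in KO. Prdx3, an enzyme of the mitochondrial matrix, stood at 304, 302 and 294 CPM in WT against 306, 308 and 292 CPM in KO, with a log2 change of 0.01 (SE 0.0950, adjusted p = 0.981 by edgeR). It was the steadiest of the 10, and its sign turned with the scaling, at 0.14 by library totals and -0.03 by upper quartile. Prdx5, an atypical peroxiredoxin found in mitochondria, peroxisomes and cytosol, stood at 31.1, 36.3 and 43.1 CPM in WT against 49.2, 33.1 and 46.4 CPM in KO. Its groups overlapped, with a log2 change of 0.22 (SE 0.173, adjusted p = 0.673 by edgeR). That value rested on single libraries, at 0.09 without KO replicate 1, 0.11 without WT replicate 1, 0.35 without WT replicate 3 and 0.37 without KO replicate 2, and it was 0.35 by library totals. The annotation gives Prdx5 and the methyltransferase partner Trmt112, on the opposite strand, 409 exonic bases in common, and Trmt112 had 522 to 858 reads per library beside 579 to 874 for Prdx5.

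Prdx4 of the endoplasmic reticulum and Prdx6 were lower in KO by a like amount. Prdx6, the 1-Cys member that acts on phospholipid peroxides with glutathione, stood at 123, 149.96 and 169 CPM in WT against 92.9, 78.4 and 116 CPM in KO. The groups did not overlap, though KO replicate 3 came within a few CPM of WT replicate 1 (log2 -0.62, SE 0.161, adjusted p = 0.176 by edgeR). Prdx6 had a log2 change of -0.79 without KO replicate 3 and of -0.34 for that library alone. Prdx4, which lies on the X chromosome, stood at 32.4, 61.9 and 43.5 CPM in WT against 28.2, 26.1 and 32.7 CPM in KO. WT replicate 1 lay among the KO libraries, and the log2 change was -0.66 (SE 0.214, adjusted p = 0.262 by edgeR). Since KO replicates 1 and 2 had little Xist, sex and genotype cannot be told apart in those libraries, for this gene as for the other transcripts. KO replicate 3 alone gave -0.49. Without WT replicate 2, the highest library, the log2 change of Prdx4 was -0.38 (adjusted p = 0.527 by edgeR). Near-identical copies held few or no counted reads: Prdx2-rs3 had 0 reads in all 6 libraries, and Prdx6b and Prdx6-ps2 had at most 3 and 1.

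The cytosolic thioredoxin pair was lower in KO, least so in KO replicate 3. Txn1, the thioredoxin that recharges peroxiredoxins and ribonucleotide reductase, stood at 184, 280 and 222 CPM in WT against 130, 117 and 193 CPM in KO, again in the order of replicates. KO replicate 3 lay above WT replicate 1, so the groups overlapped (log2 -0.64, SE 0.214, adjusted p = 0.297 by edgeR). Txnrd1, the selenoprotein that reduces thioredoxin, stood at 134, 166 and 121 CPM in WT against 64.1, 47.0 and 108 CPM in KO. Every KO library was under every WT library, but KO replicate 3 stood well above the other KO libraries (log2 -0.94, SE 0.313, adjusted p = 0.327 by edgeR). Without KO replicate 3 the log2 change of Txnrd1 was -1.34 and passed the threshold (adjusted p = 0.0323 by edgeR), and for that library alone it was -0.38, a range of adjusted p over all alternatives from 0.00521 to 0.696. For Txn1 the corresponding log2 changes were -0.89 and -0.24. KO replicates 1 and 2 are also the KO libraries with little Xist, and whether sex bears on the difference was not tested.

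Txnip, which binds and inhibits thioredoxin and restrains glucose uptake, had the tightest WT values after Prdx3. It stood at 142, 145 and 136 CPM in WT against 109, 80.2 and 109.5 CPM in KO. The groups were apart, with KO replicate 2 the lowest, and the log2 change was -0.50 (SE 0.128, adjusted p = 0.165 by edgeR). KO replicate 3 alone gave -0.36. The inhibitor and thioredoxin were thus both lower: there were 63.2 ± 12.7 Txnip reads per 100 Txn1 reads in WT and 69.6 ± 13.4 in KO (SD, n = 3 each), an exact two-sided permutation p of 0.6.

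**Figure D2:**
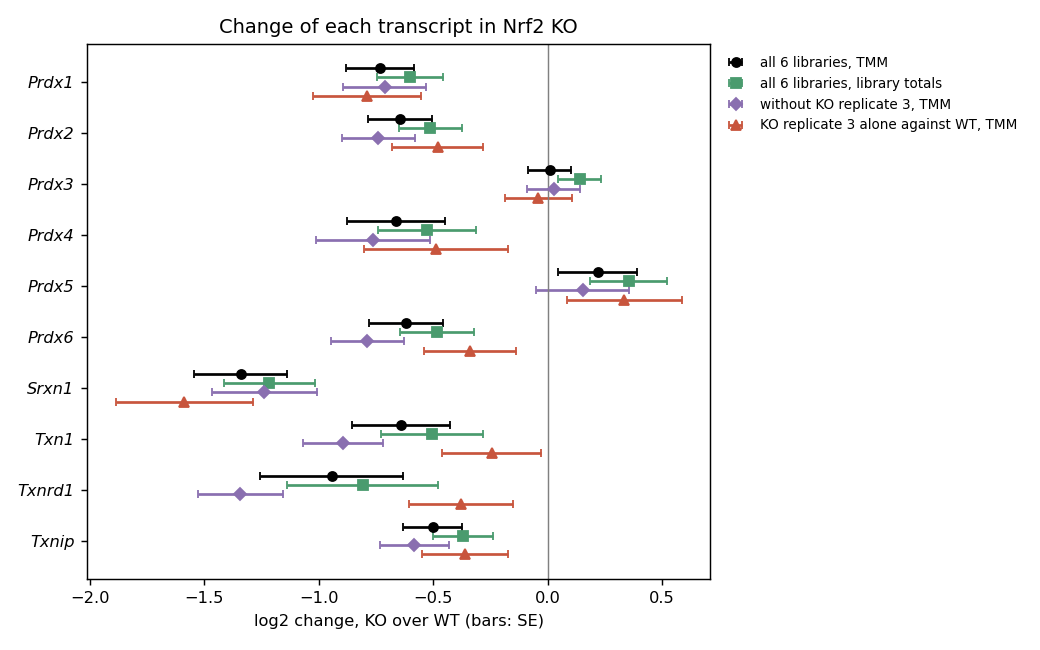
Log2 change of KO over WT (x axis) for each transcript (y axis), as estimate ± SE, for all 6 libraries with TMM scaling or library totals, with KO replicate 3 left out, or with that library as the only KO sample. Srxn1 lies lowest in most settings, Txnrd1 moves from -1.34 without KO replicate 3 to -0.38 for it alone, and Prdx3 stays near 0.

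Expressed per kilobase of principal transcript, the levels in WT spanned a wide range. Prdx2 led with 2045 ± 152 CPM per kb (SD, n = 3). Txn1 followed with 218 ± 45.6, Prdx3 with 203 ± 3.65 and Prdx1 with 139.9 ± 29.6; Txn1 and Prdx3 did not differ beyond their spread. Srxn1 (76.0 ± 17.1), Prdx6 (61.7 ± 9.83), Txnip (50.4 ± 1.72), Prdx4 (46.4 ± 15.1) and Txnrd1 (45.9 ± 7.61) came next. Each was within the SD of its neighbour except Prdx6 and Txnip, whose difference was larger than the SD of either, and Prdx5 was lowest at 29.2 ± 4.78. In KO Srxn1 stood at 30.0 ± 7.22 CPM per kb, under Prdx6 (40.2 ± 8.03) and within its SD of Txnip (35.6 ± 5.98) and Prdx4 (29.3 ± 3.41). Principal transcripts of Prdx1 in the annotation ran from 877 to 2294 bases and those of Txnrd1 from 2297 to 3531, so the places of both in this order depend on the transcript taken. The place of Prdx5 is also uncertain, since reads in the 409 exonic bases it shares with Trmt112 cannot be assigned.

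Within the peroxiredoxin family Prdx3 and Prdx5 took a larger share of the reads in KO. The family sum was lower in KO while Prdx3 itself hardly moved, at means of 300 CPM in WT and 302 CPM in KO. The 6 transcripts together stood at 3757 ± 297 CPM in WT against 2526 ± 361 CPM in KO (SD, n = 3 each), with the groups apart. Prdx2 made up 80.9%, 79.9% and 79.2% of family reads in WT replicates 1, 2 and 3 and 76.9%, 72.9% and 77.8% in KO. Prdx3 made up 8.78%, 7.46% and 7.82% in WT and 11.4%, 14.6% and 10.5% in KO, and Prdx5 0.898%, 0.896% and 1.15% in WT and 1.82%, 1.57% and 1.68% in KO. For these 3 the groups did not overlap, with Prdx2 lower in KO and Prdx3 and Prdx5 higher.

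Mean shares were 80.0% ± 0.872 and 75.9% ± 2.59 for Prdx2, a difference of -4.14 points, and 8.02% ± 0.684 and 12.2% ± 2.16 for Prdx3, a difference of 4.14 points. The share of Prdx5 went from 0.980% ± 0.145 to 1.69% ± 0.128. For each of the 3 the exact two-sided permutation p was 0.1, the smallest that 3 libraries against 3 allow, so these differences cannot reach 0.05 in this design. Shares of Prdx1 (5.86% ± 0.824 and 5.34% ± 0.669), Prdx6 (3.92% ± 0.518 and 3.79% ± 0.382) and Prdx4 (1.21% ± 0.299 and 1.16% ± 0.0971) differed by less than the spread between libraries. Per base of principal transcript the Prdx2 share was 81.0% in WT and 76.7% in KO, and that of Prdx3 8.07% and 12.2%. Per base of all annotated exons, which take in retained introns, the differences were larger, at -6.725 points for Prdx2 and 6.887 for Prdx3. Without KO replicate 2, the library with the lowest Prdx2 share, the difference of Prdx2 was -2.67 points. KO replicate 3 alone differed from WT by -2.23 points for Prdx2, 2.51 for Prdx3 and 0.694 for Prdx5. Shares of a library sum to 100%, so they are not independent of each other.

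**Figure D3:**
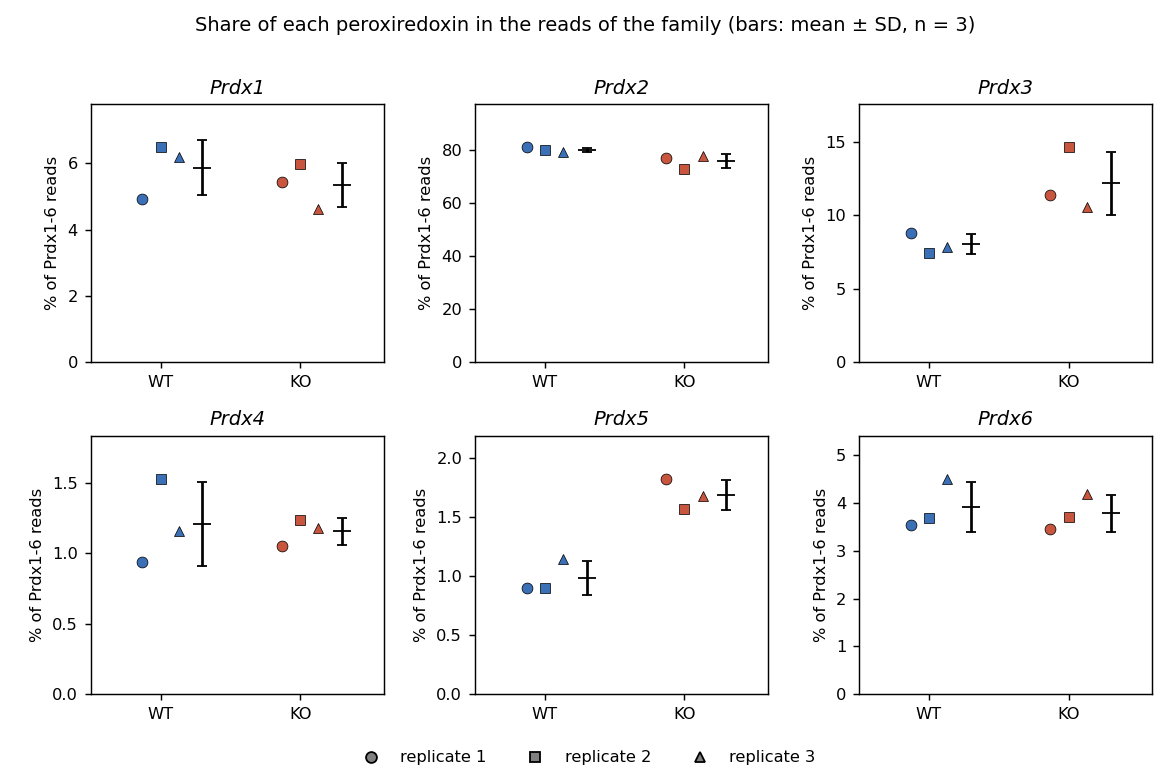
Share of each peroxiredoxin in the summed reads of Prdx1 to Prdx6 (y axis, percent, from 0, with its own range in each panel) in the 3 WT and 3 KO libraries; symbols mark the replicate and bars the mean ± SD. Every KO library has a smaller share of Prdx2 and larger shares of Prdx3 and Prdx5 than every WT library.

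Ratios between partners were taken within each library. Srxn1 had 8.003, 4.38 and 5.85 reads per 100 reads of Prdx1 to Prdx4, the typical 2-Cys members that sulfiredoxin can repair, in WT replicates 1, 2 and 3, and 4.22, 3.71 and 2.73 in KO. The groups were narrowly apart (exact two-sided permutation p = 0.1, the smallest possible). Most reads of that sum are of Prdx2. Per 100 reads of Prdx1 alone, Srxn1 had 155, 64.5 and 89.2 reads in WT and 73.6, 59.0 and 55.4 in KO. Those groups overlapped (exact two-sided permutation p = 0.2). Txnrd1 had 62.1 ± 9.47 reads per 100 Txn1 reads in WT and 48.4 ± 7.85 in KO (SD, n = 3 each), with overlap.

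Of the mitochondrial thioredoxin pair, the reductase was lower in KO and the thioredoxin was not. Txn2, the mitochondrial thioredoxin, stood at 146 ± 20.5 CPM in WT against 150 ± 11.2 CPM in KO (log2 0.04), while Txnrd2, its reductase, stood at 350.1, 432 and 389 CPM in WT against 254, 162 and 268 CPM in KO (log2 -0.78, SE 0.179, adjusted p = 0.147 by edgeR). There were 269 ± 21.5 Txnrd2 reads per 100 Txn2 reads in WT and 151 ± 31.2 in KO (SD, n = 3 each), with the groups apart. Txn2 had 66.2, 56.0 and 71.4 reads per 100 Txn1 reads in WT and 124, 119 and 78.1 in KO. In that ratio KO replicate 3 lay near WT replicate 3.

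Among 22 other thioredoxins, reductases, glutaredoxins and thioredoxin-fold proteins tested, 0 passed the adjusted threshold by edgeR, 0 by limma-voom and 2 by DESeq2 (Txnrd2 and Glrx3, against 1.81% of all genes lower and 0.569% higher). At an unadjusted p under 0.05, 2 were lower and 2 higher, near the shares of all genes (5.98% and 6.25%), and the median log2 change was 0.06. The lower ones were Txnrd2 and the membrane protein Tmx4 (log2 -0.23). The higher ones were the glutaredoxin Glrx3, at 44.4 ± 4.20 CPM in WT against 69.5 ± 7.26 CPM in KO (log2 0.65, SE 0.124, adjusted p = 0.0982 by edgeR), and Txnrd3, a reductase known from testis that stood at 2.45 ± 0.176 and 4.19 ± 0.911 CPM. Of 11 thioredoxin clients and partners, 0 passed the adjusted threshold by edgeR, DESeq2 or limma-voom and 0 passed by edgeR at an unadjusted p under 0.05, with a median of -0.17. Those with the smallest p were the ribonucleotide reductase subunit Rrm2 (log2 -0.24), the sestrins Sesn1 (log2 -0.23) and Sesn2 (log2 -0.17) and the methionine sulfoxide reductase Msrb1 (log2 -0.21). Of the 4 alpha-arrestin relatives of Txnip tested, 0 passed the adjusted threshold by edgeR, DESeq2 or limma-voom. Arrdc3 was lower at an unadjusted p under 0.05 (169.8 ± 22.0 and 128 ± 15.8 CPM, log2 -0.41), and the median was -0.11; Arrdc2 (log2 -0.19), Arrdc1 (log2 0.11) and Arrdc4 (log2 -0.04) overlapped between groups.

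Set against the late erythroid markers, Srxn1 stayed lower in KO, Prdx3 and Prdx5 were higher, and the other 7 overlapped. This ratio was chosen after the marker values were seen. The marker sum was itself lower in KO, so a transcript with a flat CPM comes out higher on this scale. Prdx3 was such a transcript (log2 0.01 in CPM). Srxn1 had 6.94, 4.25 and 5.18 reads per 1000 reads of the 10 late markers in WT replicates 1, 2 and 3 and 3.77, 2.81 and 2.53 in KO, so the groups stayed apart (log2 of the means -0.85, exact two-sided permutation p = 0.1). Prdx2 had 76.4 ± 4.39 and 69.1 ± 9.60, Prdx1 5.62 ± 1.07 and 4.82 ± 0.284, and Txnip 3.58 ± 0.176 and 3.58 ± 0.470 (SD, n = 3 each), each with overlap. Prdx4, Prdx6, Txn1 and Txnrd1 overlapped too, with log2 of the means from -0.45 for Txnrd1 to -0.12 for Prdx6. Prdx3 (7.64 ± 0.320 and 10.9 ± 0.681) and Prdx5 (0.935 ± 0.132 and 1.54 ± 0.251) were higher in every KO library. Nqo1 had 1.57 ± 0.401 and 0.527 ± 0.123 on this scale and stayed lower in every KO library.

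**Figure D4:**
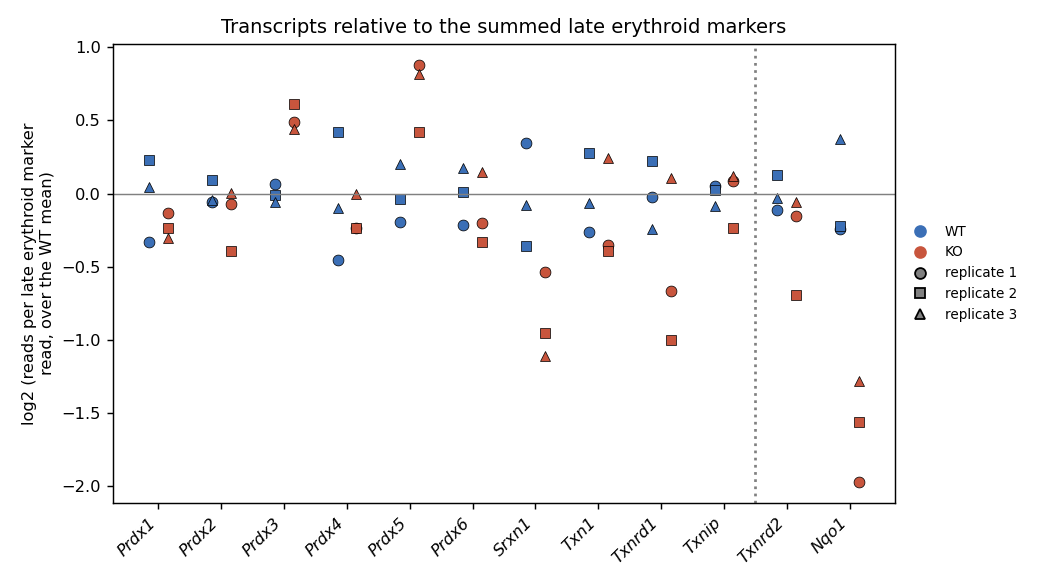
Reads of each transcript per read of the 10 late erythroid markers in each library, as log2 over the WT mean (y axis); colours mark the group and symbols the replicate, and Txnrd2 and Nqo1 stand to the right of the dotted line for comparison. Srxn1 and Nqo1 are lower in every KO library, Prdx3 and Prdx5 higher, and the others overlap.

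The genes most like 4 of the transcripts were found by Pearson's r of log2 CPM over the 6 libraries among 10848 genes, given as a description that spans both genotypes. For Prdx2 they were Tfrc, the transferrin receptor (r = 0.997), Hagh, a glyoxalase (0.997), Txnrd2 (0.996), Gclc, the catalytic subunit of glutamate-cysteine ligase (0.996), and Mmp23 (0.996). For Txnip they were the heme synthesis enzyme Fech (0.997), the mitochondrial iron importer Slc25a37 (0.995), Fbxo34 (0.993), Tgtp2 (0.992) and the erythroid transcription factor Tal1 (0.991). Those named for Srxn1 were Fzr1 (0.983), Ubap1 (0.977), the ubiquitin enzyme Ube2o (0.976) and Xpo7 (0.976). For Prdx1 they were Kctd7 (0.994), Cdr2 (0.994), Naglu (0.989), Arl6ip1 (0.988) and the proteasome subunit Psmd4 (0.987). Srxn1 changed by a log2 of -1.34 while the 4 genes named for it changed by -0.44 to -0.31. Likeness here is therefore of the pattern over libraries and not of the size of the change.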

How the data were processed

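RNA was purified from spleen Ter119+ cells and sequenced from TruSeq version 2 libraries, per the labels' protocols. The deposited file holds raw counts, whole numbers of reads by gene symbol, for 6 libraries. STAR 2.5, HTSeq, DESeq2 and mm10 appear, without roles, per the submitters' processing notes; the annotation and the strand setting appear nowhere in the labels. Of 35275 lines, 27 with a date for a gene name (0.340% to 0.383% of reads) were left out, and 122 lines sharing 52 symbols were summed, which left 35178 symbols.

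Counts were tested with edgeR 4.0.16 (R 4.3.3; filterByExpr, TMM, robust quasi-likelihood F test, KO against WT, prior count 0.125), with Benjamini-Hochberg adjustment over 13721 genes and a threshold of 0.05. CPM used TMM-scaled library sizes (library totals for Xist and the Y chromosome), and SE is the log2 change over the root of F. DESeq2 1.42.0, limma-voom 3.58.1, other scalings and filters, single libraries left out, KO replicate 3 alone and the replicate number as a block were alternatives; per-length shares by principal transcripts and the ratios to late erythroid markers were added after the data were seen. Shares and ratios used exact permutation tests (scipy 1.17.1), and the scripts were tested on simulated data. Positions and lengths are from GENCODE M21 (mm10). No pair of libraries was within sampling noise (chi-square per gene at least 22.1).

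The 10 members and the lists were chosen with earlier results of these data known. Named genes are the 10, up to 4 per pathway list with the smallest p, the 5 most like each of Srxn1, Prdx1, Prdx2 and Txnip, listed copies and marker sums; 1 gene under this rule is not reported here.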

Additional observations from a re-analysis of the deposited data

How the results depend on the processing

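Genes called over the whole table numbered 3, and 10 with DESeq2 size factors in edgeR, 8 with upper-quartile scaling, 33 with library totals (24 higher and 9 lower), 326 by DESeq2, 228 with no filter, 9 with 1 CPM in 3 libraries, 6 for KO replicate 3 alone (its spread taken from the other libraries), and 0 to 14 when a library was left out (0 without WT replicate 2, with 1338 at an unadjusted p under 0.05 by edgeR). Of the 10 transcripts, edgeR called 0, DESeq2 7 and edgeR with no filter 5, all lower. With no filter 168 of all 21680 genes were called lower and 60 higher. Of the 10, 0 to 1 were called when a library was left out: Srxn1 without KO replicate 1 and Txnrd1 without KO replicate 3. Those lower at an unadjusted p under 0.05 by edgeR numbered 8, beside 820 of all 13721 genes. They numbered 5 without WT replicate 2 (683 of 14124 genes) and 6 with library totals (351 of 13721). With no filter (1119 of 21680), the replicate block (882 of 13721) and without KO replicate 1 (808 of 14118) they numbered 7. For KO replicate 3 alone the log2 change was -0.24 for Txn1 and -0.38 for Txnrd1, but -1.59 for Srxn1 and -0.79 for Prdx1. Scaling by library totals put the all-gene median at 0.15 in place of 0.02.

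The replicate numbers are not said to pair libraries, and deviations of same-numbered libraries correlated by 0.0949, 0.0397 and 0.0430, under the limit of 0.1, though each library correlated best with its own number. With the replicate block edgeR called 9 genes, 1 of them among the 10 (Srxn1, adjusted p = 0.00219).

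The log2 change of Prdx3 turned negative with DESeq2 size factors (-0.0125), upper quartile (-0.0334), by DESeq2 (-0.0124) and for KO replicate 3 alone (-0.0408), and ran from -0.0233 to 0.0262 without single libraries. No other transcript turned sign under any alternative run. Among the shares, those of Prdx4 (-0.188 to 0.108 points) and Prdx6 (-0.336 to 0.166) turned without single libraries, and Prdx6 was 0.284 points higher for KO replicate 3 alone; Prdx1, Prdx2, Prdx3 and Prdx5 kept their direction under all alternatives run. The causes were not tested. Each of the 10 transcripts had at least 502 reads in every library.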
